A study of Mus musculus with 6 samples.

Results

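The genes that set which transmitter a neuron releases were followed through injured and control sciatic nerve, dorsal root ganglia (DRG) and spinal cord of the mouse. They were taken by gene symbol, and the 9 genes are Gad1, Gad2, Slc32a1 and Slc6a5 (inhibitory), Slc17a6 and Slc17a7 (glutamatergic), and Chat, Slc18a3 and Slc5a7 (cholinergic). They account for 11 of the 25697 probes of the array and for 9 of the 16593 genes measured. Gad1 and Chat have 2 probes each and the other genes 1.

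A neuron is named inhibitory, glutamatergic or cholinergic by the enzyme that makes its transmitter and by the carrier that loads it into synaptic vesicles. Interneurons of the spinal cord release GABA, glycine or glutamate, and its motor neurons release acetylcholine at the muscle, whereas the sensory neurons of the DRG release glutamate. The cell bodies of sensory and motor neurons lie in the DRG and in the cord, and the sciatic nerve holds their axons together with Schwann cells, fibroblasts, vessels and immune cells.

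Gene expression was measured in adult female C57Bl6 mice (C57BL6/J in the methods) on 6 Illumina MouseRef-8 v2.0 arrays, 1 for each condition. The conditions were the spinal cord on day 5 after injury, the left L4-5 DRG on day 5, the control right L4-5 DRG, the control right sciatic nerve, and the left sciatic nerve on day 1 and on day 5. Injury was a unilateral transection of the sciatic nerve at mid-thigh, and the nerve segments proximal and distal to the cut were pooled. The labels call the control tissues normal and the study's methods describe sham-operated controls, so they are named sham nerve and sham DRG here. The array taken as day 5 nerve carries the day 1 code at the end of its title, and its source name places it on day 5. The RNA of 6 animals was pooled for each array, and a cord from uninjured mice was not analysed here.

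Signals are given after the medians of the arrays had been made equal. A probe counted as detected when its detection p-value, which compares it with the negative controls of the same array, was under 0.05, and 50.9 to 54.5% of all probes were detected per array. The lowest detected signal of an array, its floor, lay between 116.8 and 123.9. Signals under the floor that were not detected were raised to it, and a difference was called where it reached 2-fold and the sample with more signal detected the gene. A fold against a sample that lacked detection is a lower bound and is written as at least so many fold. Since each condition has 1 array, differences have no replicate check, and none was tested. The 95% intervals beside folds come from the 24 to 57 beads that carry each probe on an array, so they hold technical error within an array and not the variation between animals. Background was not subtracted for these folds. Where the dimmer signal lies near background, a fold is smaller than after subtraction, also between 2 detected samples. The intervals do not cover this.

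To show where transcription of the genes that the results turn on begins, the 300 bases around 4 start sites are printed from RefSeq, which had an entry for all 9 genes. Each window runs from 250 bases before the start site to 50 bases after it on GRCm38.p6, 5′ to 3′ on the strand of the gene, which is the forward strand for all 4. Gad1 and Slc32a1 are shown because they were detected on the same 3 arrays, and Slc17a6 and Slc17a7 because they parted in the spinal cord. Capitals mark a TATA box (TATAAA) or a GC box (GGGCGG) on either strand.
Gad1, glutamic acid decarboxylase, chr2:70561879-70562178: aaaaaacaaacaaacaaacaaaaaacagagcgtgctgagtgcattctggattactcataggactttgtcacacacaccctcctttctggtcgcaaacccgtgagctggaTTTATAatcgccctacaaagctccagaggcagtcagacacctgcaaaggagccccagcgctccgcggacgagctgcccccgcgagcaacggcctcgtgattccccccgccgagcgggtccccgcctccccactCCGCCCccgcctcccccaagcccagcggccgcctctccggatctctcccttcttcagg
Slc32a1, the vesicular GABA and glycine transporter, chr2:158610508-158610807: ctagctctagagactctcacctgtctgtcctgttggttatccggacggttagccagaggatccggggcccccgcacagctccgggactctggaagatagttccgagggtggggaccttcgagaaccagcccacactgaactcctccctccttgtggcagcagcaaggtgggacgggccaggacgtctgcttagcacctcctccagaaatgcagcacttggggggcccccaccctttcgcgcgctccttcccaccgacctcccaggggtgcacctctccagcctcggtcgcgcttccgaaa
Slc17a6, the vesicular glutamate transporter VGLUT2, chr7:51621580-51621879, the first of 2 start sites: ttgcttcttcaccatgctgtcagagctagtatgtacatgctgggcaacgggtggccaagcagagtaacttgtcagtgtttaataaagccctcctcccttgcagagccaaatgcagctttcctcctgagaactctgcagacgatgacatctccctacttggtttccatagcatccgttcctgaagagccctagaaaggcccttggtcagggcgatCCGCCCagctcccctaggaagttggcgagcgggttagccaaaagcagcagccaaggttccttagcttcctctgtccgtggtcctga
Slc17a7, the vesicular glutamate transporter VGLUT1, chr7:45163671-45163970: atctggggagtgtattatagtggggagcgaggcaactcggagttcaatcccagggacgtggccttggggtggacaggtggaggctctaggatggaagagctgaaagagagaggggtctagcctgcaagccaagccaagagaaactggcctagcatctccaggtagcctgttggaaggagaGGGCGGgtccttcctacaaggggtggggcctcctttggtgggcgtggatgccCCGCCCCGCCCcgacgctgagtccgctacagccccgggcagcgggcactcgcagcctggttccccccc
The Gad1 window holds 1 GC box and 1 TATA box sequence, the latter on the reverse strand at position -141 from the start site. The Slc17a6 window holds 1 GC box and the Slc17a7 window 3 GC boxes, of which 2 overlap. These are matches of letters, and their use was not tested. Across all 32851 RefSeq promoter windows of this length in the table, 13.6% hold a TATA box and 35.7% a GC box on either strand. An E-box (CAGCTG, held by 16.3% of windows) and the core of a cyclic AMP response element (TGACG, 20.8%) were also searched and were not found in these 4 windows, and the Slc32a1 window holds none of the 4 motifs.

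The arrays were first read for markers of other cell types, and here the day 1 nerve and the sham DRG stood apart from the other peripheral samples. Oligodendrocytes, which make the myelin of the central nervous system, were represented by 11 genes and astrocytes, its other main glia, by 8. Of the oligodendrocyte markers, 10 were detected in day 5 cord (summed signal 80383), 4 in day 5 DRG (6425) and 10 in sham DRG (11951). Along the nerve series 4 were detected in sham nerve (11616), 8 in day 1 nerve (12679) and 3 in day 5 nerve (4234), and 8472 of the sum in sham nerve is Mag, which Schwann cells make as well. All 8 astrocyte markers were detected in day 5 cord (summed signal 16645), 3 in day 5 DRG (1665) and 8 in sham DRG (2541), and in nerve 3 in the sham sample (3435), 8 on day 1 (2798) and 3 on day 5 (1746). Mog, a myelin protein of oligodendrocytes, had a signal of 4642 in day 5 cord, 99.7 (not detected) in day 5 DRG and 329 in sham DRG, and in nerve it had 112 (not detected) in the sham sample, 273 on day 1 and 96.5 (not detected) on day 5. Aqp4, the water channel of astrocytes, had 4777 in day 5 cord, 133 in day 5 DRG and 398 in sham DRG, and 111 (not detected), 354 and 91.0 (not detected) in sham, day 1 and day 5 nerve. Other markers of these lists were lower in day 1 nerve than in sham nerve. They include Aldh1l1 (322 on day 1, 369 in sham nerve), Slc1a3 (1278, 2021), Slc7a10 (229, 508) and Mag (6803, 8472).

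To set the markers and the transmitter genes on one scale, the signal above background on each array was expressed as a percentage of that of the same probe in the cord, where background is the median signal of probes with a detection p-value above 0.5. A set of 8 glial genes, chosen after their values were seen because sham nerve, day 5 nerve and day 5 DRG did not detect them, was Mog, Opalin, Gpr17, Hapln2, Gfap, Slc1a2, Agt and Fgfr3. In day 1 nerve 7 of the 8 were detected, at 3.23 to 5.91% of the cord level (median 4.78%), and in sham DRG all 8, at 3.16 to 9.41% (median 5.70%). Their part in the results below was not tested, and every value that rests on day 1 nerve or sham DRG is to be read beside them.

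Of the 9 transmitter genes, day 5 cord detected 8, day 5 DRG 3 and sham DRG 4. Sham nerve detected 2, day 1 nerve 6 and day 5 nerve 1. Slc17a6 was detected on all 6 arrays and Gad2 on none.

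**Figure D1:**
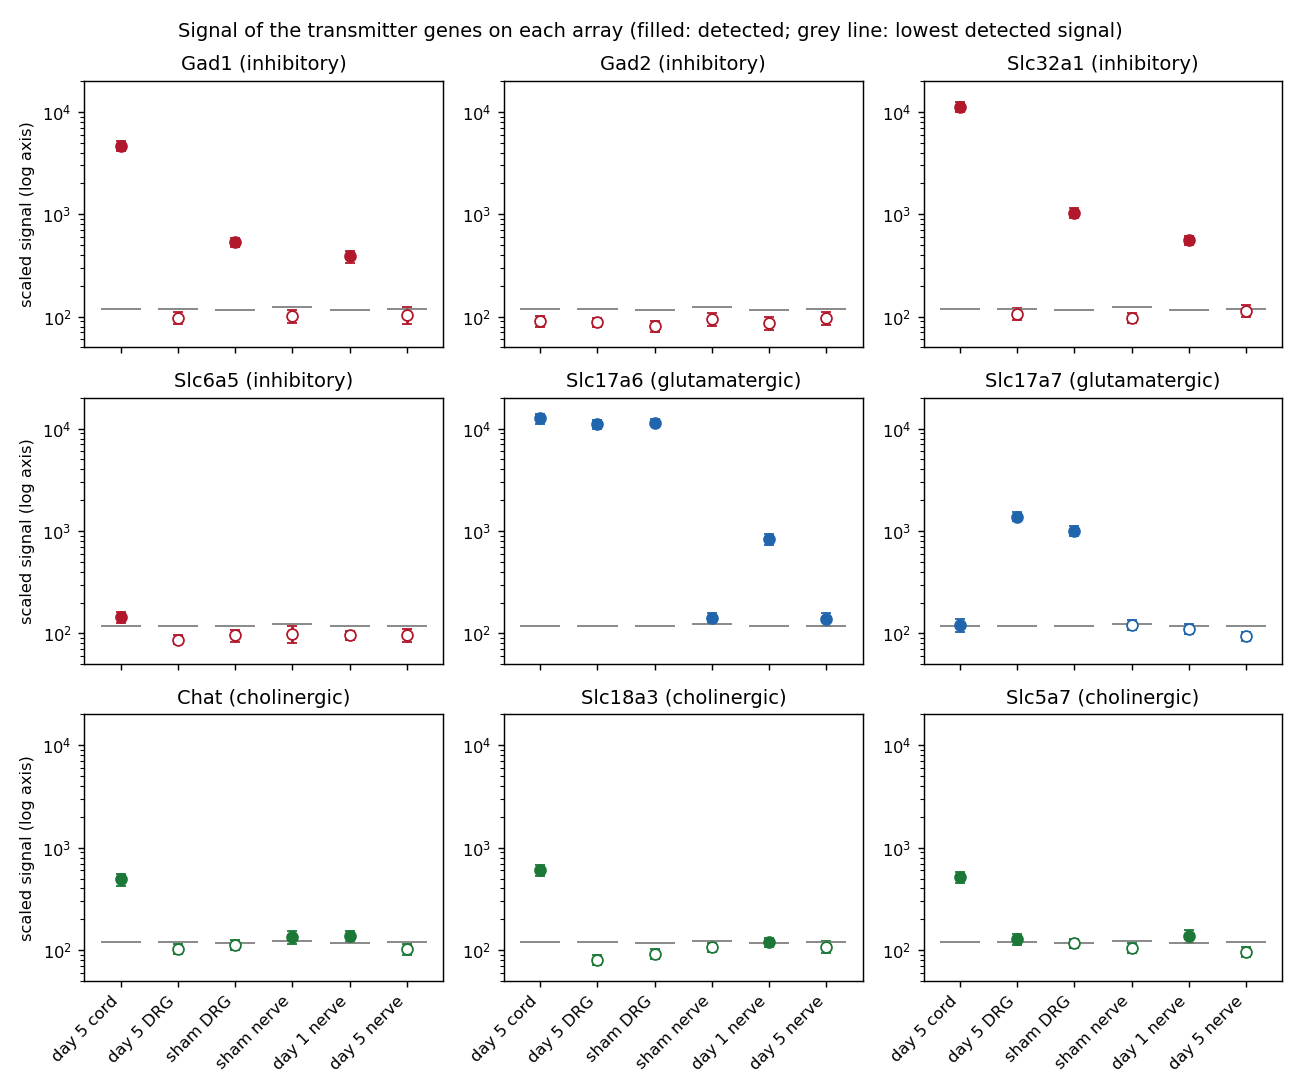
Scaled signal (log axis) of each of the 9 genes on the 6 arrays, with 95% intervals from the beads; filled points were detected, open points were not, and the grey line is the floor of the array. Gad1 and Slc32a1 stand above the floor in cord, sham DRG and day 1 nerve, Slc17a6 at about the same height in cord and both DRG, and Slc17a7 in the 2 DRG samples.

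Among the inhibitory genes, Gad1 encodes the isoform of glutamic acid decarboxylase that makes most of the GABA of a neuron, and it lies on chromosome 2 (70561303-70602014 on GRCm38.p6). Its signal was 4664 in day 5 cord, 97.0 in day 5 DRG, 532 in sham DRG, and 102, 387 and 105 in sham, day 1 and day 5 nerve. It was detected in cord, sham DRG and day 1 nerve and lay under the floor on the other 3 arrays. The second Gad1 probe divided the arrays in the same way, with 3753 in day 5 cord, 109 in day 5 DRG, 444 in sham DRG, and 86.1, 284 and 99.6 in sham, day 1 and day 5 nerve.

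Slc32a1 (chromosome 2, 158607260-158615747) encodes the transporter that fills vesicles with GABA and glycine and is shared by both kinds of inhibitory neuron. Its signal was 11208 in day 5 cord, 106 in day 5 DRG and 1026 in sham DRG. In nerve it was 97.0 in the sham sample, 556 on day 1 and 115 on day 5. The arrays that detected it were those that detected Gad1, and none of the other 3 rose above its floor. Relative to the cord, signal above background in day 1 nerve was 6.47% for Gad1 (95% interval 5.04 to 7.91%) and 4.19% for Slc32a1 (3.46 to 4.92%), and in sham DRG it was 9.69% for Gad1 (7.96 to 11.4%) and 8.43% for Slc32a1 (7.01 to 9.84%). The 8 glial genes above spanned 3.23 to 5.91% in day 1 nerve and 3.16 to 9.41% in sham DRG. Slc32a1 lay inside both ranges. Gad1, read from its brighter probe, lay above them, but its 95% intervals reached into both. The second Gad1 probe was not put on this scale. Over the 9 oligodendrocyte markers bright in the cord, the median was 5.09% in day 1 nerve and 7.32% in sham DRG. Their range was 3.73 to 39.3% (Mag highest) in day 1 nerve and 3.16 to 19.5% (Omg highest) in sham DRG. Both top genes were also detected in other peripheral samples, Mag at 49.0% in sham nerve and Omg at 8.16% in day 5 DRG. Gad1 and Slc32a1 lay inside this range, which those genes widen, so their place in it shows little. In day 5 DRG both genes were at or under 0.16% of the cord level.

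**Figure D2:**
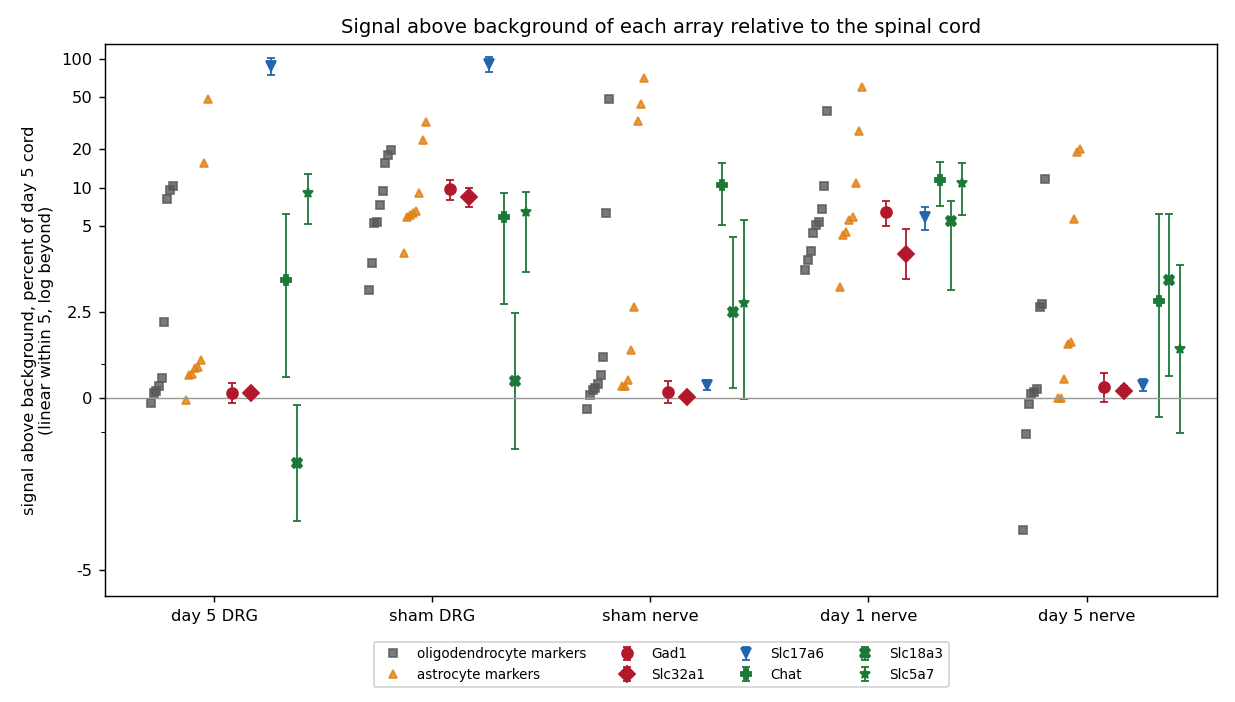
Signal above background on each array outside the cord as a percentage of the same probe in day 5 cord (linear below 5, logarithmic above), for the transmitter genes that the cord detected at 2 times its floor or more, with 95% bead intervals, and for oligodendrocyte markers (grey squares) and astrocyte markers (orange triangles). Gad1 and Slc32a1 lie among the glial markers in day 1 nerve and sham DRG and near 0 on the other arrays, while Slc17a6 lies at 87.6% and 90.8% in the 2 DRG samples.

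Gad2 (chromosome 2, 22621015-22693877), the isoform of glutamic acid decarboxylase found mainly at nerve endings, was at background on every array, with signals from 80.7 to 96.6. Interneurons of the cord are known to express this gene, and no level is drawn from a probe at background in every tissue. The probes of Snap25, Bsn and Nefl, which neurons express widely, were likewise undetected on all 6 arrays. Slc6a5 (chromosome 7, 49906984-49963864), the plasma membrane transporter that marks glycine-releasing neurons, was detected in day 5 cord at 144 and lay between 86.9 and 99.4 elsewhere. The cord signal is at least 1.21-fold that of day 5 DRG, which is short of the 2-fold limit. It rests on 1 probe close to the floor of the cord array (119.1), so the size of the difference is not drawn from it.

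Among the glutamatergic genes, Slc17a6 (chromosome 7, 51621830-51671126) encodes VGLUT2, a vesicular glutamate transporter of sensory neurons and of most excitatory neurons of the cord. Its signal was 12549.6 in day 5 cord, 10998 in day 5 DRG and 11399 in sham DRG, so that cord and ganglia lay within 1.14-fold of each other. In nerve it was detected at 142 in the sham sample, 832 on day 1 and 138 on day 5. Day 1 nerve reached 5.95% (4.9 to 7.0%) of the cord level above background, against 0.39% in sham nerve, while day 5 nerve was at 0.38%.

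Slc17a7 (chromosome 7, 45163921-45176139) encodes VGLUT1, which large sensory neurons use and which in the spinal cord is found mostly in the endings of fibres whose cell bodies lie elsewhere. Its signal was 121 in day 5 cord, 1384 in day 5 DRG and 1004 in sham DRG, and in nerve 122, 110 and 94.2 in the sham, day 1 and day 5 samples. Both DRG samples detected it well above the floor, the cord detected it at the floor (detection p-value 0.0376), and no nerve sample did. It is the gene of the set with its highest signals in the ganglia.

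The cholinergic genes were dim outside the cord. Chat (chromosome 14, 32408203-32465909) encodes choline acetyltransferase, which makes acetylcholine, and had a signal of 491 in day 5 cord, 104 (not detected) in day 5 DRG and 113 (not detected) in sham DRG. In nerve it was 135 in the sham sample and 137 on day 1, both detected just above the floor, and 102 (not detected) on day 5. The second Chat probe was detected in the cord alone, at 122, and had 97.3 to 114 on the other arrays, so the faint nerve signal was carried by 1 of 2 probes. In the cord, where the first probe had 491, the second lay close to the floor of 119.1. A fainter signal would be missed by it, so its lack of detection in nerve does not bear on the first probe.

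Slc18a3 (chromosome 14, 32462437-32464850), the vesicular acetylcholine transporter, lies within the span of Chat on the same strand, and its start site is 1059 bases downstream of that of Chat. Its signal was 601 in day 5 cord, 80.1 in day 5 DRG and 91.6 in sham DRG, and 107, 119 and 108 in sham, day 1 and day 5 nerve. Outside the cord, day 1 nerve alone passed detection, with a p-value of 0.0376. Slc5a7 (chromosome 17, 54273590-54299038), the transporter that takes choline back into the ending, had 516 in day 5 cord, 128 in day 5 DRG and 117 in sham DRG. In nerve it had 106 in the sham sample, 137 on day 1 and 96.7 on day 5. Day 5 DRG and day 1 nerve detected it, in both cases close to the floor.

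On day 1 after transection the injured nerve was compared with the sham nerve. Gad1 was at least 3.12-fold higher (387 in day 1 nerve, 102 and not detected in sham nerve), Slc32a1 at least 4.49-fold higher (556 in day 1 nerve, 97.0 and not detected in sham nerve) and Slc17a6 5.85-fold higher (832 in day 1 nerve, 142 in sham nerve, 95% interval 4.94 to 6.94). These were 3 of the 9 genes, or of the 6 detected on either array, and none was lower, where over all 10234 genes detected 6.54% were called higher and 3.59% lower. The median log2 difference was 0.89 over the 6 genes and -0.01 over all genes. Chat did not differ by 2-fold (1.01-fold, 0.839 to 1.22), and Slc5a7 was at least 1.10-fold higher. Because the arrays read pooled tissue, more cells or cell fragments carrying a transcript and more transcript in each of them cannot be told apart. Relative to the cord, day 1 nerve had 6.47% for Gad1, 4.19% for Slc32a1 and 5.95% for Slc17a6. The 8 glial genes above spanned 3.23 to 5.91% on the same array. Whether material of the spinal cord was in the day 1 nerve sample was not tested.

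Other neuronal genes were higher with them in the day 1 nerve. Of 8 detected markers of all neurons, 2 were at least 2-fold higher and 0 lower (median log2 difference 0.49), where 6.54% of all genes were higher and 3.59% lower. Rbfox3, the nuclear protein NeuN of mature neurons, had 342 in day 1 nerve and 89.7 (not detected) in sham nerve, and Nefm, a neurofilament, had 419.5 in day 1 nerve and 123.5 (not detected) in sham nerve. Stmn2, which is abundant in axons, had 1102 in day 1 nerve and 1103 in sham nerve, and Uchl1 had 525 in day 1 nerve and 516 in sham nerve. Stmn3 (460 in day 1 nerve, 249 in sham nerve) and Gap43 (317 in day 1 nerve, 179 in sham nerve) were higher by less than 2-fold. Of the 9 sensory neuron markers measured, 4 were detected in day 1 nerve at the most at 168 (Prph) and 2 in sham nerve, and 0 of the 5 detected on either array differed by 2-fold. Avil, Scn10a, Trpv1, P2rx3 and Mrgprd were not detected in day 1 nerve. Of 9 oligodendrocyte markers detected on either array, 4 were at least 2-fold higher in day 1 nerve and 0 lower (median log2 difference 0.66). Of 8 astrocyte markers 1 was higher, Aqp4, and 1 lower, Slc7a10 (229 in day 1 nerve, 508 in sham nerve), with a median of 0.02, so the list as a whole went neither way. The part of the glial values in these differences was not tested.

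On day 5 after transection the inhibitory genes were at background in the injured nerve, as in the sham nerve. Of the 2 genes detected in day 5 or sham nerve, none differed by 2-fold, where 6.30% of 10121 genes were higher and 5.09% lower. Slc17a6 was 1.03-fold lower (138 in day 5 nerve, 142 in sham nerve; 0.853 to 1.25), and Chat was at least 1.14-fold lower. Against day 1 nerve, day 5 nerve was lower for Gad1 (at least 3.25-fold), Slc32a1 (at least 4.68-fold) and Slc17a6 (6.04-fold, 4.97 to 7.33), or 3 genes of 9, where 4.65% of all genes were lower and 3.25% higher. The comparisons of day 1 nerve share 1 array, so these 2 sets of folds are not independent of each other.

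In the DRG, which hold the cell bodies of the cut sensory axons, 2 inhibitory genes were lower on the injured side and the glutamatergic genes stayed under the 2-fold limit. Slc32a1 was at least 8.61-fold lower (106 and not detected in day 5 DRG, 1026 in sham DRG) and Gad1 at least 4.46-fold lower (97.0 and not detected in day 5 DRG, 532 in sham DRG). These were 2 of the 9 genes, or of the 5 detected on either array, and none was higher, where 0.324% of 10191 genes were called lower and 0.854% higher. The median log2 difference was -0.05 over the 5 genes and -0.001 over all genes. Slc17a6 was 1.04-fold lower (10998 in day 5 DRG, 11399 in sham DRG, 0.910 to 1.18), and Slc17a7 had 1384 in day 5 DRG and 1004 in sham DRG, 1.38-fold higher (1.18 to 1.60) and under the 2-fold limit. Slc5a7 was at least 1.10-fold higher, and Chat and Slc18a3 were detected in neither sample.

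Glial markers of the central nervous system were read in the same comparison. Of 10 oligodendrocyte markers detected, 4 were at least 2-fold lower in day 5 DRG and 0 higher (median log2 difference -0.72), as were 1 and 0 of 8 astrocyte markers (median -0.51). Olig1, a transcription factor of oligodendrocytes, had 106 (not detected) in day 5 DRG and 967 in sham DRG. In nerve Olig1 was detected on day 5 as well, at 409, where sham nerve had 106 (not detected) and day 1 nerve 901. The sensory neuron markers, with a summed signal of 44528 in day 5 DRG and 50869 in sham DRG, were lower for 1 of 9 and higher for 0. The part of the glial values in the lower Gad1 and Slc32a1 signal was not tested.

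**Figure D3:**
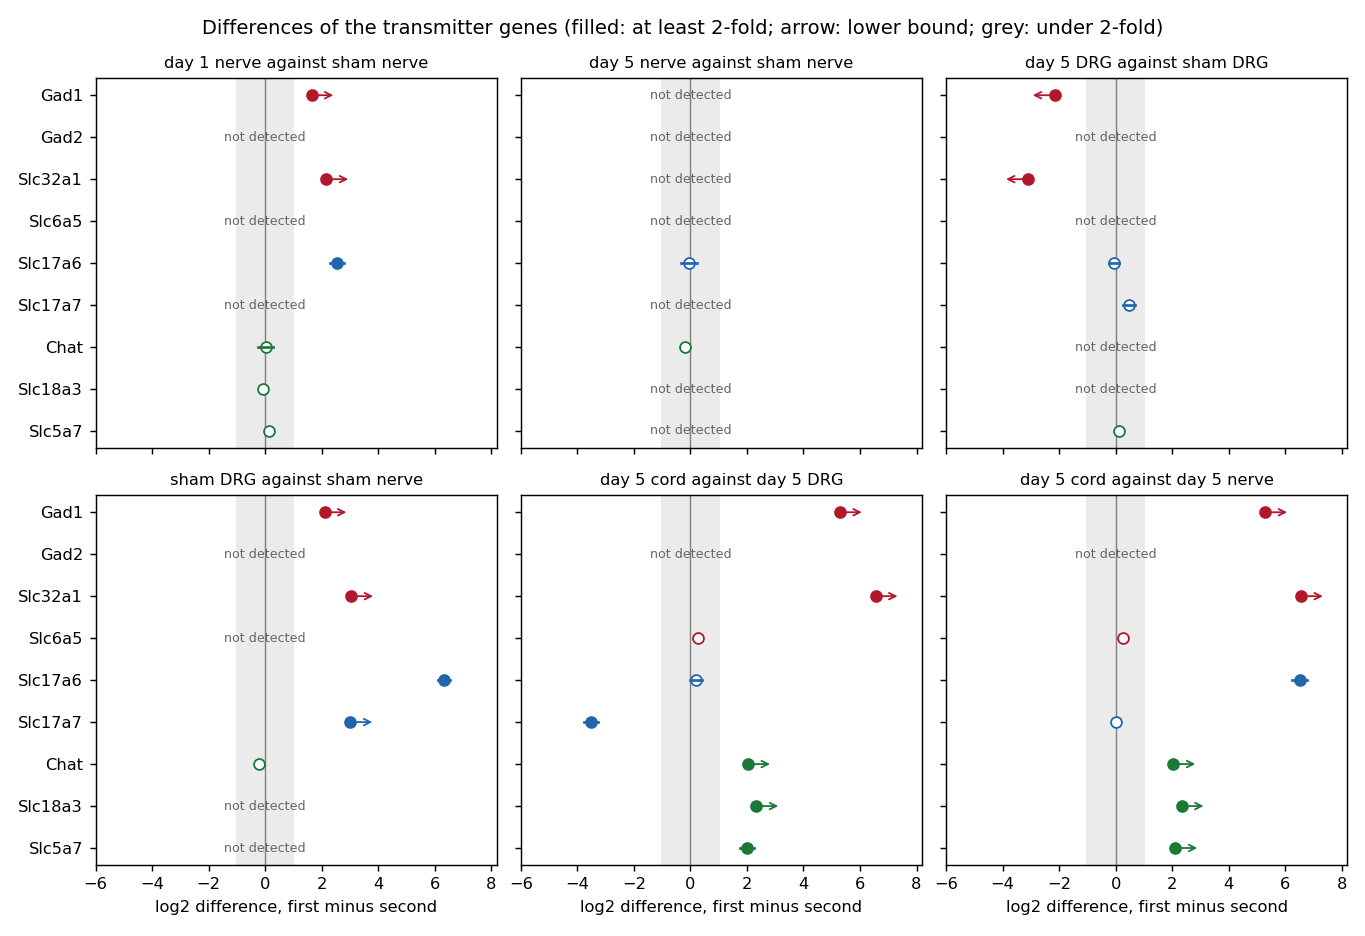
Log2 difference of each of the 9 genes in the 6 comparisons, first sample minus second; arrows mark lower bounds, bars are 95% bead intervals and the grey band covers differences under 2-fold. Gad1 and Slc32a1 move right in day 1 nerve and left in day 5 DRG, and Slc17a7 alone lies to the left in cord against day 5 DRG.

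The sham DRG, which holds the cell bodies of sensory neurons, was then set against the sham nerve, which holds axons together with other cells. Slc17a6 was 80.2-fold higher in sham DRG (11399, against 142 in sham nerve; 69.6 to 92.5), Slc17a7 at least 8.10-fold, Slc32a1 at least 8.28-fold and Gad1 at least 4.29-fold. These were 4 of the 9 genes, where 12.0% of 10397 genes were higher and 11.0% lower. With the day 5 samples of the same tissues in their place, a comparison added after the data were seen, 2 genes were higher, where 11.9% of all genes were higher and 12.5% lower: Slc17a6 by 79.8-fold (10998 in day 5 DRG, 138 in day 5 nerve; 66.6 to 95.6) and Slc17a7 by at least 11.6-fold. Gad1 and Slc32a1 were detected in neither of those day 5 samples. Sham DRG also detected the 8 glial genes above, at 3.16 to 9.41% of the cord level. Their part in the Gad1 and Slc32a1 folds of the sham samples was not tested.

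The spinal cord differed from the ganglia in all 3 transmitter classes. Against day 5 DRG, day 5 cord was at least 39.1-fold higher for Gad1, at least 94.1-fold for Slc32a1, at least 4.12-fold for Chat, at least 5.04-fold for Slc18a3 and 4.03-fold for Slc5a7 (3.40 to 4.77). The Chat fold is that of its brighter probe, and with the mean of both probes its log2 difference was 1.04 in place of 2.04, close to the 2-fold limit. Slc17a7 was 11.5-fold lower (9.63 to 13.7), and Slc17a6 differed by 1.14-fold (0.984 to 1.32). In all, 5 of the 9 genes were higher and 1 was lower, where 6.08% of 10388 genes were higher and 7.51% lower, and the median log2 difference was 2.03 over the 8 genes detected and -0.03 over all genes. Against sham DRG the folds for the inhibitory genes were smaller, at 8.77 for Gad1 (4664 in day 5 cord, 532 in sham DRG; 7.46 to 10.3) and 10.9 for Slc32a1 (9.31 to 12.8). Slc17a7 was 8.33-fold lower in day 5 cord than in sham DRG (6.94 to 9.99), and Chat was at least 4.21-fold, Slc18a3 at least 5.15-fold and Slc5a7 at least 4.42-fold higher, so that 5 genes were again higher and 1 lower, where 5.10% of 10382 genes were higher and 6.08% lower.

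Against day 5 nerve, 6 of the 9 genes were higher in day 5 cord and 0 lower, where 13.1% of 10762 genes were higher and 15.1% lower. Slc17a6 was 91.1-fold higher (75.7 to 110), Slc32a1 at least 94.2-fold, Gad1 at least 39.2-fold, Slc18a3 at least 5.05-fold, Slc5a7 at least 4.34-fold and Chat at least 4.13-fold. Slc17a7 was at least 1.01-fold and Slc6a5 at least 1.21-fold higher, short of 2-fold. The cord sample held glia and neurons at once, with 9 of 10 oligodendrocyte markers higher than in day 5 nerve, and the share of each cell type in it was not measured.

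To see which other genes followed the same course over the 6 arrays, the log2 signal of each gene was centred on its mean and set against that of 1 gene of each class, the one with the widest range. Likeness was the root mean square of the differences over the 6 arrays, among 11703 genes. The gene nearest to Slc32a1 was Gad1 (0.50), followed by Mobp (0.60), a myelin protein of oligodendrocytes, Aqp4 (0.61), Slc39a12, a zinc transporter (0.65), and Prr18 (0.65). Mobp had 5177 in day 5 cord, 120 in day 5 DRG and 365 in sham DRG, and 128, 349 and 105 in sham, day 1 and day 5 nerve. The genes nearest to Slc17a6 were Vstm2l (0.18), Atp1b1, a subunit of the sodium pump (0.27), Bex2 (0.31), Nefm, a neurofilament (0.34), and Cplx1 (0.36). Atp1b1 had 25337 in day 5 cord, 15760.3 in day 5 DRG and 15772 in sham DRG, and 275, 1337 and 315 in sham, day 1 and day 5 nerve.

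The course of Slc18a3 was that of a gene above the floor in the cord and near it elsewhere, and many genes had it. The nearest were S1pr5, a lipid receptor of oligodendrocytes (0.03), Atp13a4 (0.09), Gpr17, a receptor of oligodendrocyte precursors (0.09), Kcnab3 (0.09) and Igsf1 (0.10). Slc5a7 was the nearest of its own class at rank 10 (0.13) and Chat stood at rank 15 (0.15). The distances rest on 6 arrays that share tissues, and most values of these genes are at the floor.

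The other genes of transmitter handling were read from 6 lists. Their counts are to be read beside the shares over all genes. In day 1 nerve 6.54% of all genes were higher and 3.59% lower than in sham nerve, and in day 5 nerve 6.30% and 5.09%. In day 5 DRG 0.854% were higher and 0.324% lower than in sham DRG. In day 5 cord 6.08% were higher and 7.51% lower than in day 5 DRG. For GABA and glycine handling, 8 of 9 listed genes were on the array. In day 1 nerve against sham nerve 0 of 7 detected genes were higher and 0 lower (median log2 difference -0.06). In day 5 nerve 3 of 6 were lower (median -0.79): Abat, which breaks GABA down, at 704 in day 5 nerve and 2452 in sham nerve (3.49-fold lower, 3.03 to 4.01), and the GABA and betaine transporters Slc6a13 (644 in day 5 nerve, 1489 in sham nerve, 2.31-fold) and Slc6a12 (247 in day 5 nerve, 617 in sham nerve, 2.49-fold). In day 5 DRG 1 of 7 was lower (median -0.37), the glycine transporter Slc6a9, at 181 in day 5 DRG and 429.5 in sham DRG (2.38-fold lower, 2.08 to 2.72). Against day 5 DRG, day 5 cord was higher for 4 of 8 (median 1.31), namely Abat (7128 in cord, 1128 in DRG, 6.32-fold), Slc6a9 (5255 in cord, 181 in DRG, 29.1-fold), the astrocyte GABA transporter Slc6a11 (907 in cord, 111 and not detected in DRG, at least 7.61-fold) and the glutamine transporter Slc38a3 (389 in cord, 87.8 and not detected in DRG, at least 3.26-fold).

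For glutamate handling, 0 of 8 detected genes differed by 2-fold in day 1 nerve (median log2 difference -0.04) and 0 of 7 in day 5 DRG (median -0.33). In day 5 nerve 1 of 6 was higher and 1 lower (median -0.14). The higher one was Slc17a8, the third vesicular glutamate transporter VGLUT3, at 107 (not detected) in sham nerve, 119.5 on day 1 and 1031 on day 5, at least 8.32-fold higher on day 5 than in sham nerve. Slc17a8 had 167 in day 5 cord, 389 in day 5 DRG and 395 in sham DRG, so that day 5 nerve was its brightest sample. The lower one was Slc1a3, a glial glutamate transporter (909 in day 5 nerve, 2021 in sham nerve, 2.22-fold). Against day 5 DRG, day 5 cord was higher for 4 of 9 (median 0.77), among them the transporters Slc1a1, Slc1a2 and Slc1a3, and lower for Slc17a8 (2.33-fold, 1.92 to 2.82).

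**Figure D4:**
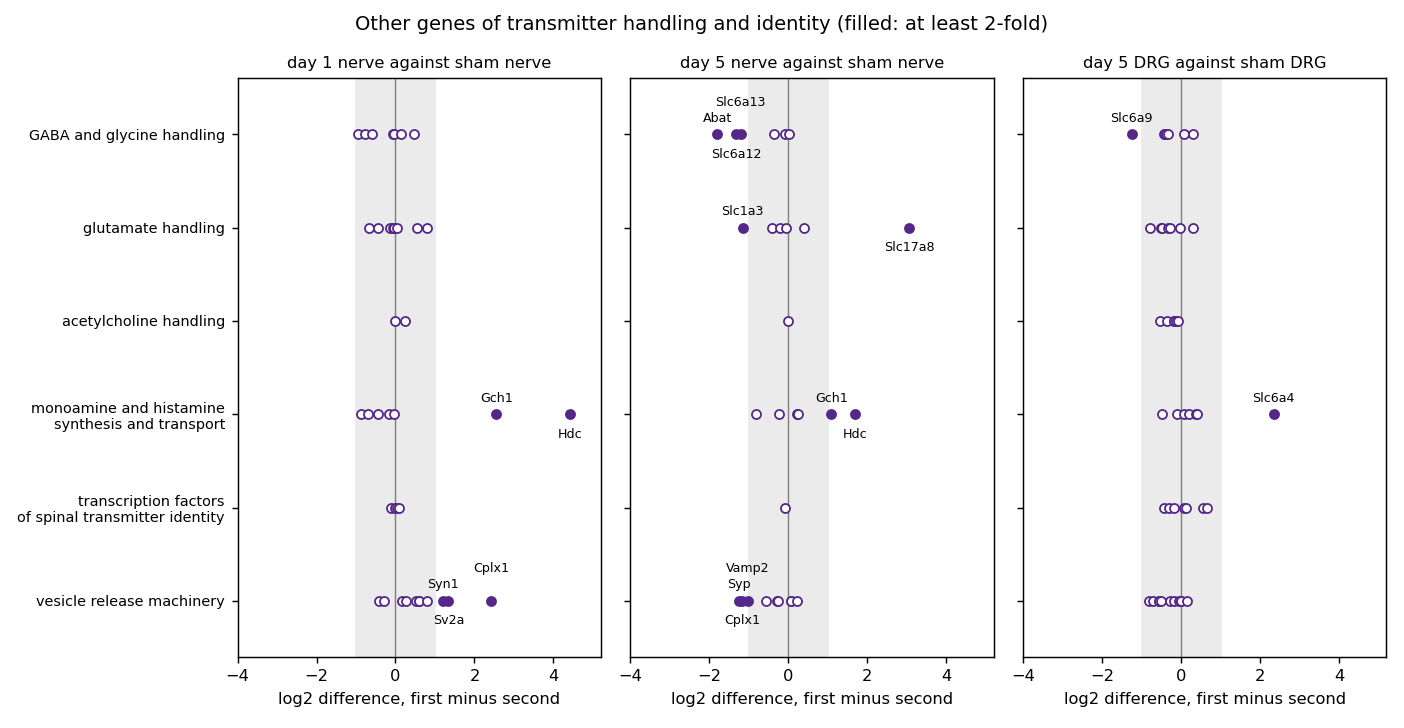
Log2 difference of the detected genes of the 6 transmitter handling and identity lists in the 3 injury comparisons, injured minus sham, with genes that differ at least 2-fold filled and named and the grey band covering smaller differences. The largest difference shown is that of Hdc in day 1 nerve (4.41).

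For acetylcholine handling, 0 genes differed by 2-fold in day 1 nerve (2 detected, median log2 difference 0.12), day 5 nerve (1 detected, -0.02) or day 5 DRG (6 detected, -0.19). Day 5 cord was higher than day 5 DRG for 2 of 6 (median 0.18), acetylcholinesterase Ache (714 in cord, 276 in DRG, 2.59-fold) and the nicotinic receptor subunit Chrna4 (972 in cord, 189.8 in DRG, 5.12-fold). The vesicle release machinery, shared by all transmitters, was higher in day 1 nerve for 3 of 11 and lower for 0 (median 0.59), where 6.54% of all genes were higher and 3.59% lower. Cplx1, a regulator of vesicle fusion, was 5.36-fold higher (2119 in day 1 nerve, 395 in sham nerve, 4.55 to 6.32), Syn1 2.31-fold and Sv2a at least 2.54-fold. These values rest on day 1 nerve, and the part of the glial values in them was not tested. Of the release genes in day 5 nerve 3 of 9 were lower (median -0.28), Syp (401 in day 5 nerve, 951 in sham nerve), Vamp2 (626 in day 5 nerve, 1269 in sham nerve) and Cplx1 (176 in day 5 nerve, 395 in sham nerve), and in day 5 DRG 0 of 11 differed by 2-fold (median -0.29). Transcription factors that specify the transmitter of spinal and sensory neurons did not differ by 2-fold in day 1 nerve (4 detected of 17 on the array, median 0.01), day 5 nerve (1 detected, -0.09) or day 5 DRG (7 detected, 0.07). In day 5 cord 3 of 10 were lower than in day 5 DRG (median -0.25), all 3 of them expressed by sensory neurons: Isl1 (229 in cord, 3884 in DRG, 17.0-fold), Tlx3 (221 in cord, 1123 in DRG, 5.07-fold) and Isl2 (138 in cord, 1022 in DRG, 7.38-fold).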

How the data were processed

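RNA pools of 6 animals were read on 6 arrays. The authors deposited non-normalized intensity values, the mean of the beads of each probe without background subtraction, with bead standard errors, bead numbers and a detection p-value. They also deposited processed intensity values, whose arrays share their quantiles to within a relative difference of 0.01178 although the methods describe normalization to the median, and these served as an alternative. The submitters' processing notes name Agilent Feature Extraction 10.5. Of 25697 probes, 23978 carried 1 gene symbol, 0 several, and 1719 were unnamed here. Where a gene had several probes, the one brightest on average over the arrays was used. Signals were scaled by factors of 0.951 to 1.071, with medians of 38 to 40 beads per probe and of 5.89 to 6.53% for the standard error, which limit the precision together with the number of arrays. Arrays were grouped by their labels into 6 planned comparisons and 3 added after the data were seen, and 9 alternatives were tried. Named genes are the 9 genes, up to 4 called genes of each pathway list by brightness and the 5 nearest profiles for 1 gene of each class, and Rbfox3, Nefm, Stmn2, Uchl1, Snap25, Bsn, Nefl and Chodl were named after their values were seen. Other marker genes were also named outside these rules after the data were seen. They include Stmn3, Gap43, Aldh1l1, Slc7a10, Mag, Omg, Avil, Scn10a, Trpv1, P2rx3, Mrgprd, Prph and Mnx1. Mog, Aqp4 and Olig1 were named from the marker lists because they moved with a transmitter gene, so their course was known when they were named. The genes and the lists, 6 of pathways and 8 of cell types, were chosen with earlier results of these data known. Python 3.11.15, pandas 2.3.3, R 4.3.3 and limma 3.58.1 were used.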

Additional observations from a re-analysis of the deposited data

Results flagged for a closer look

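The inhibitory pair moved in opposite directions in day 1 nerve and day 5 DRG, each against its sham sample. In day 5 nerve and sham nerve neither gene was detected, so no opposite movement was seen between the tissues on day 5. For Gad1 the log2 difference was 1.64 in day 1 nerve against sham nerve and -2.16 in day 5 DRG against sham DRG. For Slc32a1 the values were 2.17 and -3.11. In all 4 the dimmer sample was at its floor, so they are lower bounds of the size of each difference. The difference between the tissues was not tested, since each condition is 1 array and the nerve and DRG samples were taken on different days. In both comparisons the array with the higher signal, day 1 nerve or sham DRG, was also the one in which most markers of oligodendrocytes and astrocytes were detected, and the part of those values was not tested.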

How the results depend on the processing

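Over the 6 comparisons 21 calls were made on the 9 genes, and all 21 were kept and 0 added with no scaling, scaling to the 75th percentile, quantile normalization, the authors' processed table, the background correction of limma's neqc, background subtraction, detection at 0.01, a 1.5-fold limit or the mean of all probes of a gene. A 1.5-fold limit could add calls but not lose them. The mean of all probes could change only Gad1 and Chat, the genes with 2 probes. Of the log2 differences of single genes, 212 stayed within their bead error under these settings and 55 moved beyond it. The sign changed for 10, all of them differences that were not called, of at most 0.14 in size before and 0.07 after, and for 0 of the called ones. The largest movements came from neqc and background subtraction, which gave 2.82 and 3.16 in place of 1.64 for Gad1 in day 1 nerve and -4.60 and -4.96 in place of -3.11 for Slc32a1 in day 5 DRG. Differences between 2 detected samples grew as well where the dimmer one was near background. Slc17a6 had 3.52 and 3.80 in place of 2.55 in day 1 nerve, and 7.45 and 7.67 in place of 6.33 in sham DRG against sham nerve. In day 5 cord against day 5 DRG, Slc17a7 had -5.03 and -5.39 in place of -3.52, and Slc5a7 3.30 and 3.50 in place of 2.01. With the mean of both probes, Chat in day 5 cord against day 5 DRG had 1.04 in place of 2.04. In sham DRG against sham nerve 4 genes were called, and 2 with day 5 DRG and day 5 nerve in their place, an alternative added after the data were seen. Without scaling, the median log2 difference of all genes was 0.12 in place of -0.01 in day 1 nerve, 0.12 in place of -0.05 in sham DRG against sham nerve and -0.17 in place of -0.03 in day 5 cord against day 5 DRG. The counts of higher and lower genes were then 842 and 264 (669 and 367 with scaling), 1507 and 906 (1251 and 1141), and 517 and 994 (632 and 780). With background subtraction they were 985 and 1081 in day 1 nerve, 982 and 1225 in day 5 nerve (638 and 515 without) and 1549 and 2363 in sham DRG against sham nerve. No paired analysis was possible because each group is 1 array. Signals near the floor limit the cholinergic genes outside the cord, and Gad2 could not be read.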

Other observations

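Genes of monoamine and histamine synthesis and transport were measured for 14 of 15 listed members. Over all genes, 6.54% were higher and 3.59% lower in day 1 nerve, 6.30% and 5.09% in day 5 nerve, and 0.854% and 0.324% in day 5 DRG. In day 1 nerve against sham nerve 2 of 7 detected genes were higher and 0 lower (median log2 difference -0.16), Hdc, which makes histamine (3671 in day 1 nerve, 172 in sham nerve, 21.3-fold, 17.8 to 25.5), and Gch1, which makes the cofactor of monoamine and nitric oxide synthesis (1768 in day 1 nerve, 300.3 in sham nerve, 5.89-fold). In day 5 nerve the same pair was higher (Hdc 559 in day 5 nerve and 172 in sham nerve, 3.24-fold, and Gch1 640.3 in day 5 nerve and 300.3 in sham nerve, 2.13-fold), and both comparisons share the sham nerve array. In day 5 DRG 1 of 7 was higher, the serotonin transporter Slc6a4 (592 in day 5 DRG, 117 and not detected in sham DRG, at least 5.07-fold). Th, the first enzyme of catecholamine synthesis, had 160.2 in day 5 cord, 656 in day 5 DRG and 622 in sham DRG, and was 4.10-fold lower in day 5 cord than in day 5 DRG (3.37 to 4.98).

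Of 8 markers of motor neurons 7 were on the array, and 5 were detected in day 5 cord. Chodl, a marker of fast motor neurons, had 880.2 in day 5 cord, 134 in day 5 DRG and 185 in sham DRG, and 96.8 (not detected), 126 and 105 (not detected) in sham, day 1 and day 5 nerve. Mnx1 was not detected in the cord (109), and Prph and Isl1, which sensory neurons also express, had 489 and 229 there. Markers of macrophages were at least 2-fold higher for 3 of 7 genes in day 1 nerve, 6 of 7 in day 5 nerve and 3 of 6 in day 5 DRG, each against its sham sample. Schwann cell markers were lower for 0 of 5, 4 of 5 and 0 of 6 genes in the same 3 comparisons, and skeletal muscle markers for 5, 1 and 0 of 8. Over all genes, 6.54%, 6.30% and 0.854% were higher and 3.59%, 5.09% and 0.324% lower in these 3 comparisons.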
